A study of Homo sapiens with 3 samples.

Results

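HSF1 was 1 of 13 promoters in which a CRISPR cut was placed near the transcription start and the capped RNA 5′ ends were then read, allele by allele. All ends listed under HSF1 were taken, which gave 2373 of 131949 ends, 1389 without a deletion (unedited) and 984 with one (edited). The cells were HEK293T, an established human embryonic kidney line, and there was no untreated group: edited and unedited ends come from the same Cas9-treated cultures. Purified Cas9 protein, loaded with a guide RNA for the target, was delivered by lipofection in 2 rounds, so the alleles at HSF1 are a mixture of many repair products in a cell population and not a clone. The 2 CRISPR-Cap libraries are listed together, so no value below has an error between cultures.

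HSF1 encodes heat shock factor 1, the transcription factor that induces chaperone genes when proteins misfold. A promoter of the dispersed kind, common at housekeeping genes with CpG-rich starts, lets RNA polymerase II begin at many nearby bases. At such promoters no single start element decides the position, and sequence on both sides of a start, including the first transcribed bases, can affect how often it is used. HSF1 is divergent from BOP1, a ribosome biogenesis gene on the opposite strand.

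HSF1 lies on the plus strand of chromosome 8 (hg38). The most used unedited start was 144291605, called the main start here, and it coincides with the annotated start of transcript HSF1-206. The annotated starts of HSF1-201 (144291591) and HSF1-204 (144291598) held 1 unedited end each, against 502 at the main start. BOP1 begins at 144291370, 235 bases from the main start. The first exon of HSF1-201 runs to 144291874 and its start codon is at 144291758, so the main start and the deletions around it lie in or beside annotated 5′ untranslated sequence.

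Unedited HSF1 RNA began at a compact group of bases with a long, thin upstream tail. Of 1389 unedited ends, 502 (36.1%, Wilson 95% interval 33.7 to 38.7%) began at the main start and 184 (13.2%, 11.6 to 15.1%) 1 base upstream, at 144291604. Position 144291608, 3 bases downstream, held 172 ends (12.4%, 10.8 to 14.2%), and 144291610, 5 bases downstream, held 152 (10.9%, 9.41 to 12.7%). No other position reached 5%. These 4 starts together held 72.7% of the unedited ends, and the other 379 ends were spread from 66 bases upstream to 6 bases downstream. The effective number of starts, the exponential of the Shannon entropy of the shares, was 10.4 (9.64 to 11.2) over 49 positions.

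The edited ends were spread far more evenly. Their effective number of starts was 29.1 (27.3 to 31.1) over 63 positions, and the range between the 10th and 90th percentiles was 55 bases wide, against 19 for unedited ends. The main start was still the most frequent position, with 117 of 984 ends (11.9%, 10.01 to 14.1%), followed by the start 24 bases upstream (144291581) with 91 (9.25%, 7.59 to 11.2%). Positions 40 bases (144291565), 51 bases (144291554) and 42 bases upstream (144291563) held 63, 61 and 51 ends, or 6.40%, 6.20% and 5.18%. The same 3 positions held 11, 15 and 6 unedited ends. Starts 14 or more bases upstream of the main start made up 612 edited ends (62.2%, 59.1 to 65.2%) and 139 unedited ends (10.01%, 8.54 to 11.7%).

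**Figure D1:**
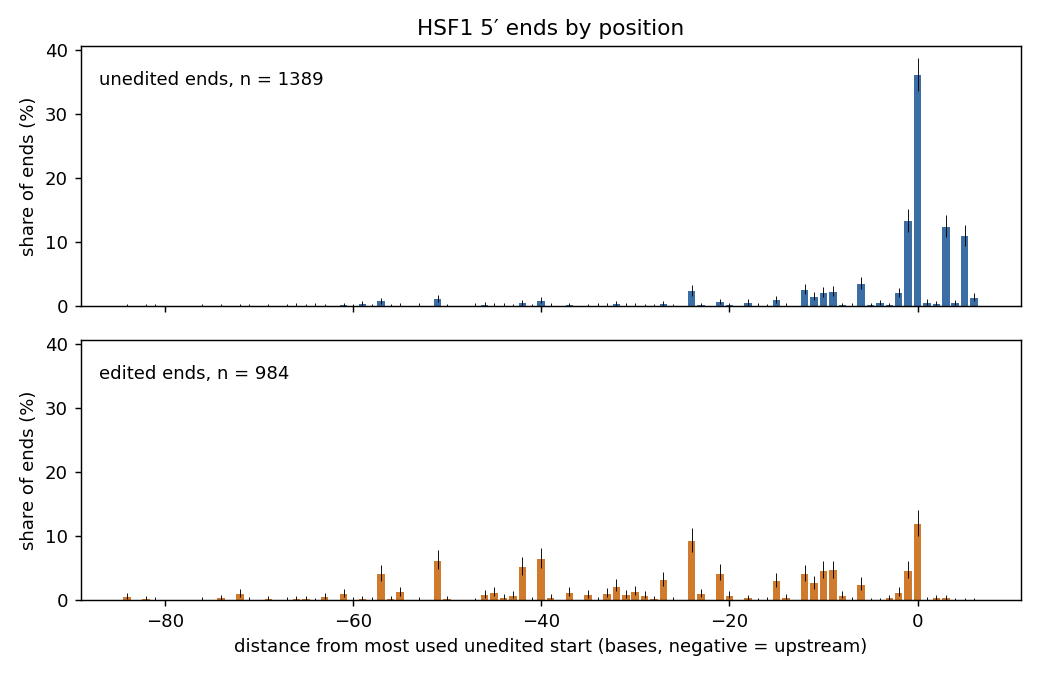
Share of HSF1 5′ ends (vertical axis, %) at each base by its distance from the main start (horizontal axis, bases), for 1389 unedited ends above and 984 edited ends below; bars are shares and lines are Wilson 95% intervals. The unedited ends gather between 1 base upstream and 5 bases downstream, and the edited ends form a row of smaller peaks that reaches 84 bases upstream.

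Starts downstream of the main start were nearly absent from the edited class. There were 360 such unedited ends (25.9%, 23.7 to 28.3%) and 7 edited ends (0.711%, 0.345 to 1.46%). The position 3 bases downstream held 3 edited ends, and the position 5 bases downstream held 0 of 984, which allows a share of up to 0.305%. At the other end of the promoter, 25 edited ends (2.54%) began 67 to 84 bases upstream of the main start, where 0 of 1389 unedited ends were found, which allows up to 0.216%. Of these 25 ends, 17 came from deletions that begin 7 or more bases upstream of the main start. The outermost of the 25, 144291521, is 151 bases from the start of BOP1.

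These raw shares cannot be read as a change in use, because the deletions lay among the starts. The base deleted most often was 144291614, 9 bases downstream of the main start, missing from 689 of 984 edited ends (70.02%, 67.1 to 72.8%). Bases 144291610 to 144291615 were each missing from more edited ends than kept them, and this stretch includes the unedited start 5 bases downstream. The main start itself was missing from 372 edited ends (37.8%, 34.8 to 40.9%), and the base 24 bases upstream from 33 (3.35%). Single deletions reached from 144291536 to 144291677.

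**Figure D2:**
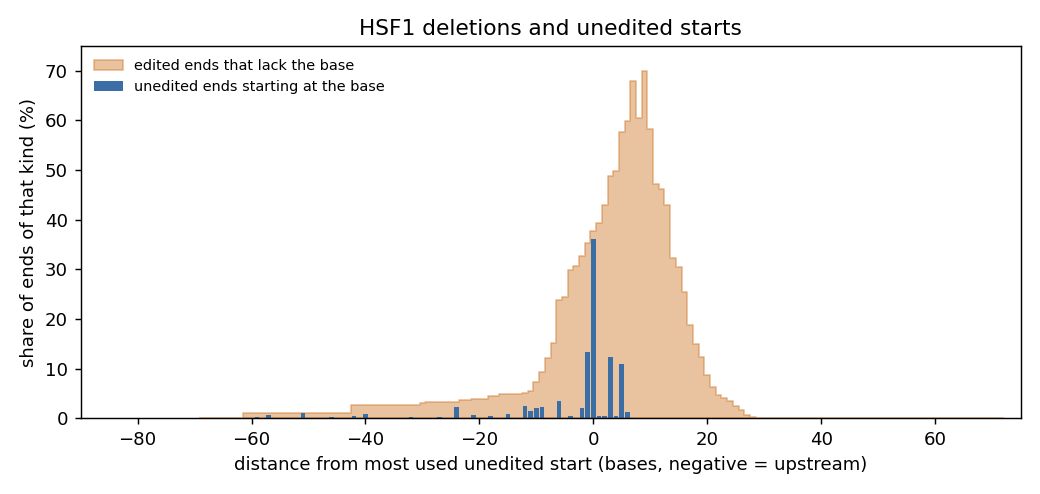
For each base around the main start (horizontal axis, distance in bases), the share of the 984 edited ends that lack it (shaded) and the share of the 1389 unedited ends that start there (bars), both in %. The deletions peak 9 bases downstream of the main start at 70.02% and still cover the main start in 37.8% of the edited ends.

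Relative to the deleted region, unedited starts were upstream or inside and hardly ever downstream. Against the most deleted base, all 1389 unedited ends lay upstream, and the last of them, at 144291611, was used by 18 ends. With 0 ends at or beyond that base, a share of up to 0.216% is allowed. Against the 6 bases at 144291610 to 144291615, 1219 unedited ends (87.8%, 85.9 to 89.4%) lay upstream, 170 within and 0 downstream. Taken deletion by deletion and weighted by edited ends, 64.7% of unedited ends lay upstream of the deletion, 34.6% within the deleted bases and 0.670% downstream. The typical deletion thus overlapped used starts: the share of unedited ends upstream of it had a median of 74.9%, a lower quartile of 22.1% and an upper quartile of 100%.

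Every edited end lay upstream of its own deletion, with at least 6 bases between the start and the deletion (the retained bases, start included). In 37 edited ends (3.76%) these were 6 or 7 bases, and 947 (96.2%, 94.9 to 97.3%) had 8 or more, with a median of 22 over all edited ends. Only 34.03% of the unedited ends, weighted in the same way, lay 8 or more bases upstream of a deletion. The remaining 65.97% began at positions where edited ends of that deletion were seldom or never listed. Comparisons of edited with unedited start shares below are therefore confined to starts that each deletion leaves with 8 or more bases. Where another minimum or an unmatched tally was used, this is stated. Whether ends with 8 or slightly more bases are also partly lost or listed as unedited was not tested, so the shares are those of listed ends. The edited share of HSF1 ends (41.5%, 39.5 to 43.5%) joins editing with the output and visibility of the edited alleles, which cannot be told apart here.

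The dependence on the first deleted base showed this limit directly. For deletions that begin 5 bases downstream of the main start, 0 of 78 edited ends were at the main start, which allows up to 3.85%. For those that begin 6 bases downstream it was 0 of 28. With the first deleted base 7 bases downstream, 26 of 98 ends (26.5%, 18.8 to 36.04%) were at the main start, with 8 bases 20 of 68 (29.4%, 19.9 to 41.1%), and with 9 bases 66 of 185 (35.7%, 29.1 to 42.8%). The main start first appeared between 6 and 7 retained bases, while the intervals from 7 to 9 overlapped. Whether starts with fewer bases are used less, or their reads are lost or listed as unedited, was not tested.

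The deletions listed at HSF1 were many and none dominated. They are counted by listed RNA ends, all of which kept 6 or more bases before the deletion. The counts thus depend on the starts that each deletion leaves, and are not shares of alleles. Other kinds of repair product are not described in the list. There were 172 distinct deletions, of which 30 had 10 or more ends and 70 had a single end, and their effective number was 87.6. Lengths ran from 1 to 90 bases with a median of 11. Deletions of 10 to 29 bases made up 50.2% of the edited ends, 3 to 9 bases 34.8%, 1 or 2 bases 10.98% and 30 or more bases 4.07%. The most frequent deletion made up the smallest part of edited ends of any of the 13 targets, 5.996%, against 9.49% at C19orf43, the next lowest.

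The 5 most frequent deletions gave different start profiles. The loss of 3 bases at 144291610 to 144291612 (59 ends, 5.996% of the edited ends) leaves the main start with 5 bases and had 0 ends there, and its ends were led by the start 10 bases upstream with 10 ends. The 20-base deletion at 144291599 to 144291618 (46 ends, 4.67%) removes the main start, and all 46 ends began 14 or more bases upstream, with a median of 42 bases and 7 ends at the position 57 bases upstream. The 19-base deletion at 144291597 to 144291615 (28 ends) likewise had all its ends there, 5 of them 40 bases upstream. The loss of the single base 144291614 (42 ends, 4.27%) kept the main start, which held 18 ends, with 11 ends 14 or more bases upstream. The 8-base deletion at 144291614 to 144291621 (28 ends) begins at the same base and had 6 ends at the main start and 13 ends 14 or more bases upstream. In the first 3 of these alleles the main start is removed or has fewer than 8 bases before the deletion, whereas the last 2 leave the same bases upstream of the deletion.

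Deletions were then grouped by what they leave of the main start. In 36 deletions with 272 edited ends the main start was kept with 8 or more bases, in 54 deletions with 335 ends it was kept with fewer, and in 82 deletions with 377 ends the first deleted base was at or upstream of it. The median length was 7 bases in the first and second groups and 18 bases in the last. The median start lay 6, 12 and 40 bases upstream of the main start in these groups. The last group had 0 ends at the main start, which is deleted in 372 of its 377 ends and lies downstream of the deletion in the other 5, where RNA from it would not carry the deletion. Only the first group was therefore used to compare the main start.

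Where the main start was left intact with 8 or more bases, it took a smaller part of the ends and far-upstream starts a larger part. Among ends at or upstream of the main start, 502 of 1029 unedited ends (48.8%, 45.7 to 51.8%) and 91 of 265 edited ends (34.3%, 28.9 to 40.2%) used it. The difference was −14.4 percentage points, with a 95% interval of −25.4 to −3.49 that includes the spread between 34 deletions. The start 1 base upstream went from 17.9% to 9.81% (−8.07 points, −14.97 to −1.17). Starts 2 to 13 bases upstream were 19.8% and 20.0% of the ends (0.175 points, −5.49 to 5.84), so no change was detectable there. Starts 14 or more bases upstream went from 13.5% (11.6 to 15.7%) to 35.8% (30.3 to 41.8%), a rise of 22.3 points (12.7 to 32.03). In this group most deletions began 8 (68 ends), 9 (185 ends) or 10 bases (15 ends) downstream of the main start. The main start thus mostly kept 8 to 10 bases, close to where it first appeared, and far-upstream starts kept at least 14 more. Whether ends at the main start are partly lost or listed as unedited there was not tested.

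Where a difference has an interval, it is called a rise or fall here only when that interval excludes 0. That is a statement on counting error and on the spread between deletions within the pooled libraries, not between cultures. With deletions of at least 10 ends only, the main-start difference was −13.4 points and its interval (−27.2 to 0.312) included 0. The far-upstream rise was then 19.6 points (7.67 to 31.6). Among ends 7 or more bases upstream only, the far-upstream rise in this group was 16.3 points (6.27 to 26.3). For the 53 deletions there that kept the main start with fewer than 8 bases the far-upstream difference was 8.18 points, and the interval (−1.25 to 17.6) included 0.

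**Figure D3:**
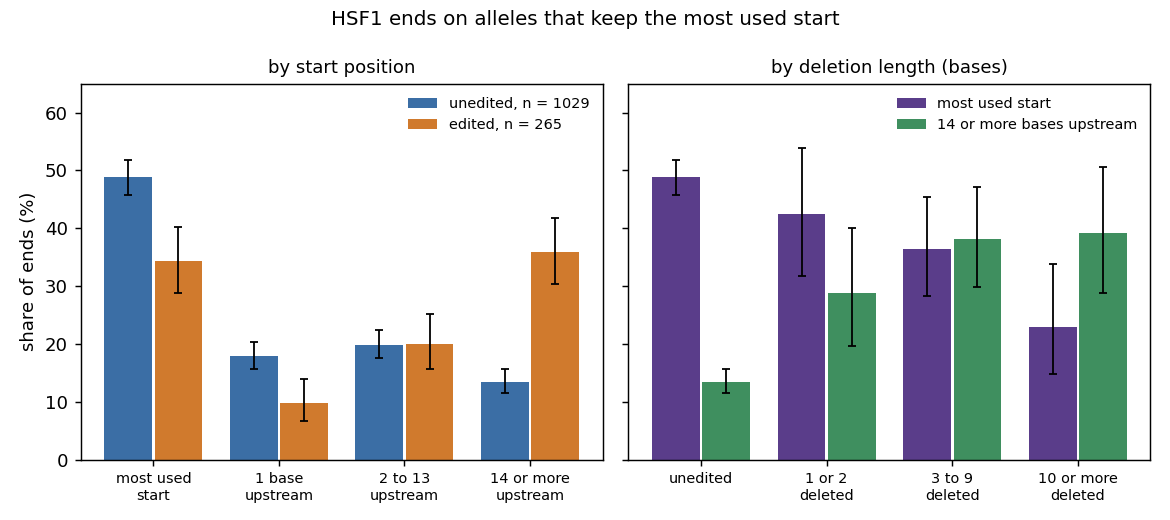
HSF1 ends at or upstream of the main start on alleles that keep it with 8 or more bases; the vertical axes give shares of ends (%), and lines are Wilson 95% intervals of the ends. On the left, unedited (n = 1029) and edited ends (n = 265) are set out by start position, with the main start at 48.8% and 34.3%; on the right, the main start and the starts 14 or more bases upstream are set out by deletion length.

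The length of the deletion was examined within the same group. The main start held 31 of 73 ends (42.5%, 31.8 to 53.9%) with 1 or 2 bases deleted, 43 of 118 (36.4%, 28.3 to 45.4%) with 3 to 9 bases, and 17 of 74 (22.97%, 14.9 to 33.7%) with 10 or more. The longest class was below the shortest (a difference of −19.5 points, −37.1 to −1.87). However, the shortest class held only 6 deletions and the longest 14. In the shortest class, 1 deletion with 42 ends gave 18 of the 31 ends at the main start. With so few and unequal deletions, the intervals by length class may be too narrow. Whether length itself, rather than the particular alleles in each class, underlies the difference was not tested. Against unedited ends, the main-start difference was −25.8 points (−40.5 to −11.1) for the longest class and −6.32 (−16.97 to 4.33) for the shortest, whose interval included 0. Far-upstream starts were above the unedited 13.5% in all 3 classes, at 28.8%, 38.1% and 39.2%, with differences of 15.3 (5.42 to 25.1), 24.6 (7.74 to 41.5) and 25.7 points (11.9 to 39.4). The longest and shortest classes did not differ in this respect beyond their spread (10.4 points, −6.23 to 27.1).

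Deletions that begin at the same base, 144291614, keep the same sequence upstream and differ only in how far they reach downstream, as placed in the list. They made up 185 edited ends and 18 lengths, and 5 lengths had 15 or more ends. The main start held 18 of 42 ends (42.9%, 29.1 to 57.8%) after the loss of 1 base and 12 of 18 (66.7%, 43.7 to 83.7%) after 5 bases. It held 5 of 17 (29.4%, 13.3 to 53.1%) after 7 bases, 6 of 28 (21.4%, 10.2 to 39.5%) after 8 bases and 1 of 17 (5.88%, 1.05 to 26.98%) after 9 bases. In the 9-base deletion 14 of 17 ends lay 14 or more bases upstream, against 3 of 18 in the 5-base deletion. The shares did not follow length: the 5-base deletion lay above the 1-base deletion, and among lengths with fewer ends the main start held 7 of 8 after 6 bases, 4 of 5 after 14 bases and 3 of 5 after 17 bases, but 0 of 4 after 2 bases and 0 of 8 after 10 bases. Each length here is 1 allele. The first 5 were named for their number of ends and the others after their values were seen.

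Matched over all deletions, the ends lay farther upstream on edited alleles. For each deletion, edited ends with 8 or more retained bases were set against the unedited ends at the same allowed positions, which used 834 edited ends over 151 deletions and positions with at least 10 ends. The mean position was 5.10 bases farther upstream (2.91 to 7.28). The main start held 10.9% of edited and 14.7% of matched unedited ends, a difference of −3.84 points (−7.54 to −0.134), which is small because most deletions leave that start out of the comparison. The interval included 0 with deletions of at least 10 ends only (−3.90 points, −9.06 to 1.27) and with 12 or more retained bases (−0.295, −0.596 to 0.00614). The shift fell as more retained bases were required. It was 7.34 bases (5.18 to 9.50) with 6 or more, 3.69 (1.38 to 6.01) with 12 or more and 0.437 (−1.97 to 2.85) with 20 or more.

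By position, the largest matched gains were at the starts 42, 40 and 27 bases upstream. The start 42 bases upstream went from 2.46% to 6.12% of the ends, the start 40 bases upstream from 4.51% to 7.55%, and the start 27 bases upstream (144291578) from 1.58% to 3.72%. These rest on 6, 11 and 4 unedited ends and were not tested one by one. The start 24 bases upstream, the most used in both classes among starts 14 or more bases upstream, was 12.2% of matched unedited and 10.9% of edited ends. The start 51 bases upstream was 6.67% and 7.31%. The largest matched falls were at the main start, at 1 base upstream (8.46% to 4.92%) and at 6 bases upstream (144291599, 6.11% to 2.88%). All 3 are at the downstream edge of the promoter, close to the deletions.

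Distance to the deletion, taken over all positions without a minimum of ends, parted the gains from the falls. Starts with 8 to 11 retained bases held 35.97% of matched unedited ends and 23.2% of edited ends (−12.8 points, −18.1 to −7.48), and those with 12 to 15 bases 14.1% and 9.39% (−4.69, −7.80 to −1.57). At 16 to 19 bases the shares were 12.1% and 10.7%, and the interval included 0 (−1.46, −4.87 to 1.96). Beyond that the edited shares were higher: 18.1% against 12.7% at 20 to 29 bases (5.44 points, 1.84 to 9.03), 15.5% against 8.51% at 30 to 39 bases (6.96, 3.55 to 10.4), and 23.2% against 16.6% at 40 or more (6.56, 1.29 to 11.8). Since shares add up to the whole, a fall near the deletion and a rise away from it cannot be told apart. Whether ends near the deletion are partly lost or listed as unedited was not tested either. As an odds ratio over deletions, starts with 8 to 19 bases against starts with 20 or more gave 0.432 (0.327 to 0.571 with deletions as clusters, 0.375 to 0.497 by the Robins-Breslow-Greenland formula, which counts reused unedited ends as independent).

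**Figure D4:**
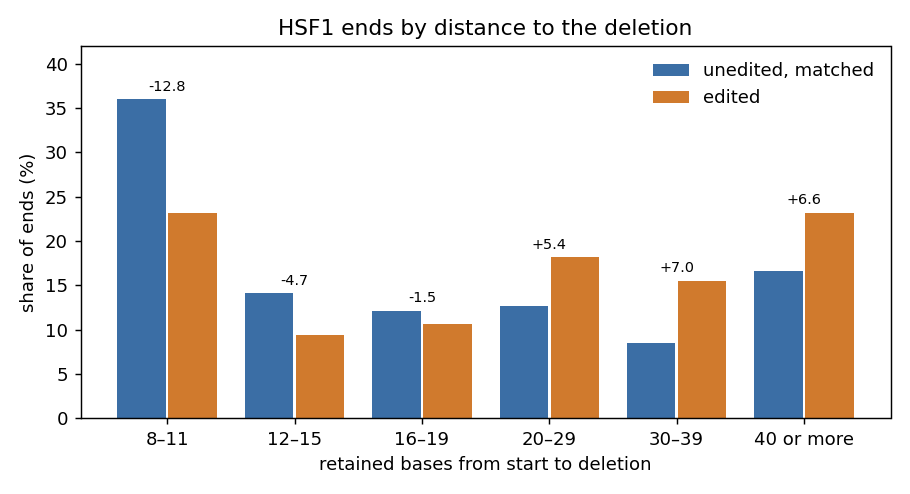
Share of HSF1 ends (vertical axis, %) by the number of retained bases between start and deletion (horizontal axis), for matched unedited and edited ends (937 edited ends, 164 deletions); the number above each pair is the difference in percentage points, whose intervals are in the text. Edited ends are lower from 8 to 15 bases and higher from 20 bases on.

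Within the far-upstream part, shares of single starts were compared for deletions that leave every such start with 8 or more bases. Of ends 14 or more bases upstream, the start 24 bases upstream took 32 of 139 unedited ends (23.02%), 23 of 95 (24.2%) where the main start was kept with 8 or more bases, 27 of 165 (16.4%) where it was kept with fewer, and 31 of 202 (15.3%) where deletions began 0 to 6 bases upstream of the main start. The start 51 bases upstream took 10.8%, 9.47%, 12.1% and 11.4%, and the start 57 bases upstream (144291548) took 7.19%, 6.32%, 5.45% and 6.93%. Of 21 differences from the unedited share, over 7 starts and 3 groups, 2 had intervals that excluded 0. These were the start 42 bases upstream in the last group (4.32% to 10.4%, 6.08 points, 0.526 to 11.6) and the start 21 bases upstream (144291584) in the middle group (5.76% to 13.9%, 8.18 points, 0.406 to 15.96). Neither interval is adjusted for the number of comparisons. The 7 starts were those 14 or more bases upstream with the most edited ends, so this choice favours gains. The starts 15 and 18 bases upstream, with 13 and 7 unedited and 29 and 3 edited ends in all, were not compared. Ends 40 or more bases upstream were 41.7% of the unedited tail and 46.3%, 44.2% and 52.5% in the edited groups, each with an interval of the difference that included 0. Deletions that begin 7 or more bases upstream of the main start (150 edited ends in this part) were left out of these differences, because they remove or come within 8 bases of some of the starts compared. In them the start 24 bases upstream held 10 ends (6.67%, 3.66 to 11.8%), the start 21 bases upstream held 0, which allows up to 2.00%, and starts 40 or more bases upstream made up 58.0% (50.0 to 65.6%).

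Among the 13 targets, HSF1 had the largest share of edited ends whose deletion removes the main start. Its main start was removed in 37.8% of the edited ends, against 20.0% (17.5 to 22.8%) at IRF1, the next highest, a difference of 17.8 points (13.7 to 21.8). The main start of IRF1 was set from only 31 unedited ends. These intervals cover counting error only, not the spread between deletions. A deletion that removes the main start is listed only where RNA begins upstream of it. The share therefore also depends on how much each target uses upstream starts, which was not matched between targets. At C19orf43 and LETMD1, whose effective numbers of starts were nearest to that of HSF1 (11.8 and 7.78), the main start was removed in 0 of 19497 and in 0.754% of the edited ends. HSF1 ranked 3 of 13 in effective number of starts, behind NDUFV3 (15.1) and C19orf43. At the depth of the shallowest of the 9 targets with at least 100 ends of each kind, 813 unedited ends, HSF1 had 10.2.

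In the change of share at an intact main start HSF1 did not stand apart from all targets. Measured with the same minimum of 8 bases kept, the difference was −14.4 points at HSF1, 2.52 (1.15 to 3.90) at C19orf43 and −30.97 (−51.7 to −10.3) at LETMD1. The number of bases kept beyond that minimum was not matched between targets, and its part in these differences was not tested. The difference between HSF1 and C19orf43 was −16.97 points (−28.01 to −5.93). Between HSF1 and LETMD1 it was 16.5 points with an interval of −6.91 to 39.96, so these were not told apart. Among the 9 targets the value at HSF1 ranked 5 from the lowest.

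**Figure D5:**
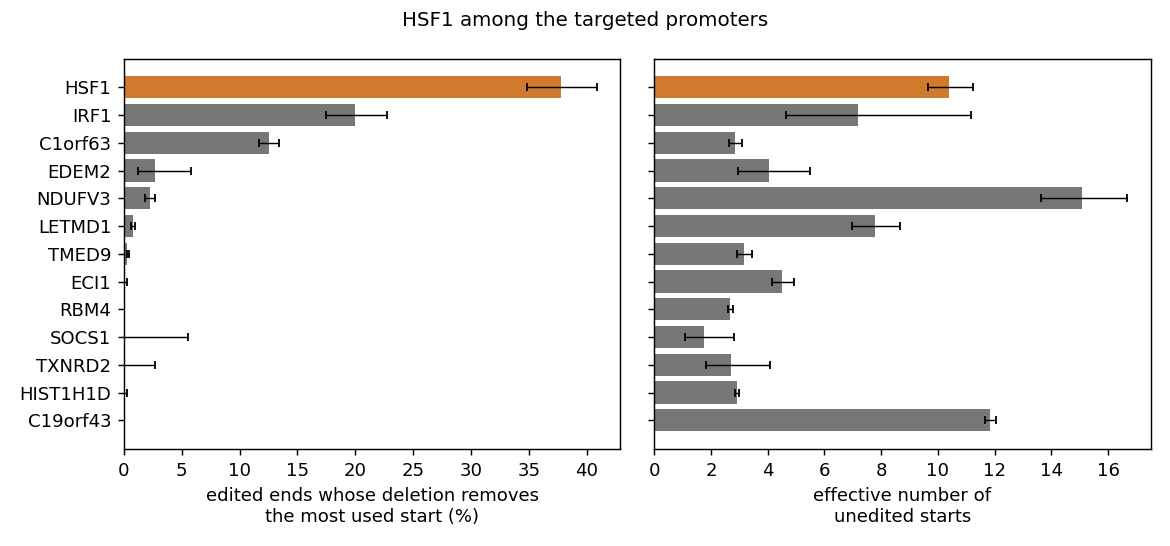
The 13 targeted promoters with HSF1 in orange; on the left the share of edited ends whose deletion removes the main start of the target (%), on the right the effective number of unedited starts, with 95% intervals (Wilson and delta method). HSF1 has the largest value on the left, 37.8%, and a value of 10.4 on the right, below NDUFV3 and C19orf43.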

How the data were processed

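The authors deposited 1 line per capped 5′ end, with its class, position, deletion edges, deletion length and target; the list holds positions and lengths in bases, with no normalised unit. The hg38 build and the aligner STAR are named per the submitters' processing notes. Its settings, and whether lines are PCR reads or collapsed molecules, are not stated there. The libraries are pooled, with no library column, so no test over samples could be made. Positions were taken as counted from 0: adding 1 put 52.02% of 7047 unedited ends of 7 other targets on a purine after a pyrimidine, against 1.04% without it (RefSeq promoters, GRCh38.p14). Printed coordinates count from 1. Strand and annotation came from GENCODE release 29. Deletion edges were used as listed. Shares carry Wilson 95% intervals, which cover counting error only; matched differences carry intervals from an analytic standard error with deletions as clusters, which also cover the spread between deletions. If lines are PCR reads, both are too narrow. Limits for a count of 0 use 3 counts. A position needed at least 10 ends to enter the matched comparison of the main start and the shift. Named positions had at least 5% of either kind of end or were among the 3 largest matched gains and falls. Others were named as annotated starts, as outermost ends, as leading starts of a deletion, or within the far-upstream part. The 7 starts compared in that part were those with the most edited ends there. Named deletions were the 5 most frequent. On simulated HSF1 data the interval of the matched difference held the true value in 90.0% of 50 runs without a change and in 100% of 50 runs with 30% of the main start moved. The simulated deletions shared 1 start profile, so these runs do not test how the interval covers the spread between deletions. The comparison on alleles that keep the main start was not simulated. The member, groups and comparisons were chosen with earlier results of these data known. Python 3.11.15, numpy 2.4.6, scipy 1.17.1 and pandas 2.3.3 were used. The reporter files were not used here.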

Additional observations from a re-analysis of the deposited data

How the results depend on the processing

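No paired analysis was possible because the list has no column that separates the 2 libraries, and for the same reason no library could be left out. Moving deletions to their highest possible coordinate was not run, since no HSF1 sequence was used here. The comparison restricted to alleles that keep the main start, and its alternatives, were chosen after seeing the data. The far-upstream rise on those alleles stayed above 0 in all 6 alternatives (19.6 to 27.0 points), and the odds ratio stayed below 1 in all 7 (0.330 to 0.495). With deletions of at least 10 ends only, the edited share was 30.3%, the matched main-start difference −3.90 points and the main-start difference on alleles that keep it −13.4 points, the latter 2 with intervals that included 0. With deletions of at least 3 bases the edited share was 38.7%. With 12 retained bases the matched main-start difference was −0.295 points, and with 20 it could not be measured, while the upstream shift was 0.437 bases. Deletion by deletion, 64.7% of unedited ends lay upstream, against 100% for the most deleted base. With at least 10 unedited ends per position, the effective number of starts was 7.60. Tallied without matching, the main-start difference was −24.3 points and the shift 21.8 bases. With 984 edited ends, a count of 0 allows a share of up to 0.305%.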
